A study of Homo sapiens with 6 samples.

Results

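Long noncoding RNAs were followed in Hep3B cells, a line labelled as liver cancer, described as knocked out for endogenous PD-L1. Genes were chosen by their type and mean level. A gene was taken when its deposited type was lincRNA (long intergenic noncoding RNA) or antisense and its mean over the 6 libraries was at least 50 scaled reads. Of the 27009 genes in the table, 5313 had one of these types, and 321 of them reached that mean, 177 lincRNA and 144 antisense. No gene carried the type lncRNA itself. The 3 vector libraries came from knockout cells with the empty vector. The other 3 came from the same knockout cells after lentiviral delivery of nPD-L1, a PD-L1 whose sequence had been mutated so that the protein stays in the nucleus, under a CMV promoter in a puromycin-resistance vector. Both groups were therefore labelled as knockout for endogenous PD-L1, and stable cells of a single line were compared. A scaled read is a read count divided by 1 size factor per library, as the authors deposited it.

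The libraries were checked against their labels first. CD274, the gene of PD-L1, stood at 28.3, 38.4 and 47.8 scaled reads in the vector libraries and at 16.8, 19.2 and 30.9 in the others, so the groups overlapped and its level did not rise with the construct (log2 fold change −0.76, standard error (SE) 0.34, two-sided exact permutation p = 0.2, with 0.1 as the smallest p that 3 against 3 libraries allow). The second group is therefore called the libraries labelled nPD-L1, or nPD-L1 for short where values are listed. Reads of CD274 were present in the vector libraries too, although these are labelled as knockout without a PD-L1 construct. The source of these reads was not tested. Markers that define hepatocytes and hepatoma cells were nearly absent. ALB, TTR, APOA1, APOB and TF were at or under 2.89 scaled reads in every library, SERPINA1 ranged from 7.91 to 41.4, and FGB alone was high, from 962 to 1540. Leukocyte and endothelial markers (PTPRC and PECAM1) stayed at or under 3.03. Of the fibroblast markers, DCN and PDGFRA stayed at or under 9.10 and COL1A1 rose from 65.3 ± 16.5 to 466 ± 21.1 (SD, n = 3). The cells are named here as labelled, and the part of these markers in the results was not tested.

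Long noncoding RNAs are transcripts that are spliced and capped much like messenger RNAs but carry no long reading frame. Some act as scaffolds for proteins, some shape nuclear bodies, and some serve as precursors from which microRNAs or small nucleolar RNAs are cut. Many are transcribed from promoters shared with, or placed inside, a protein-coding gene, so that a long noncoding RNA and its neighbour can be read side by side.

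All 321 long noncoding RNAs entered the test, and none had a value under 10 in any library. Of them, 8 were higher and 4 lower in the libraries labelled nPD-L1 at an adjusted p under 0.05 (limma on log2(value + 1), Benjamini-Hochberg over the 15076 genes tested). In bulk RNA, fewer cells with a transcript and less of it per cell cannot be told apart. These 12 were 3.74% of the long noncoding RNAs, against 4.96% of all genes tested, 5.54% of the genes with a mean of at least 50 and 5.75% of the protein-coding genes with such a mean. By direction, 2.49% were higher and 1.25% lower, against 4.04% and 0.922% of all genes tested. The share called was thus near that of other genes. At least a 2-fold change was reached by 6 of the 12 (1.87%, against 2.48% of all genes tested), 5 of them higher. In 73 of the 321 the groups did not overlap (22.7%, against 20.6%). By direction the shares differed from those of all genes tested, with 28 higher (8.72%, against 12%) and 45 lower (14.0%, against 8.54%). At an unadjusted p under 0.05 in limma 22 were higher (6.85%, against 9.53%) and 33 lower (10.3%, against 4.71%).

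Most of the others lay slightly below 0. The fitted difference was under 0 for 203 of 321 (63.2%, against 53.3% of all genes tested), and the median log2 fold change was −0.09, against −0.02 over all genes tested. Without nPD-L1 replicate 1 that median was −0.04. The summed level of the 321 genes was 71551, 70699 and 70043 scaled reads in the vector libraries and 63913, 69353 and 75710 in those labelled nPD-L1, so the sums overlapped. Long noncoding RNAs were measured less precisely than other genes of the same minimum level. Their median mean was 102 scaled reads against 627, and the median standard error of the log2 fold change was 0.22 against 0.14. In 4 libraries recovered whole reads were accepted, and these held 17427519 to 22253295 reads on genes.

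**Figure D1:**
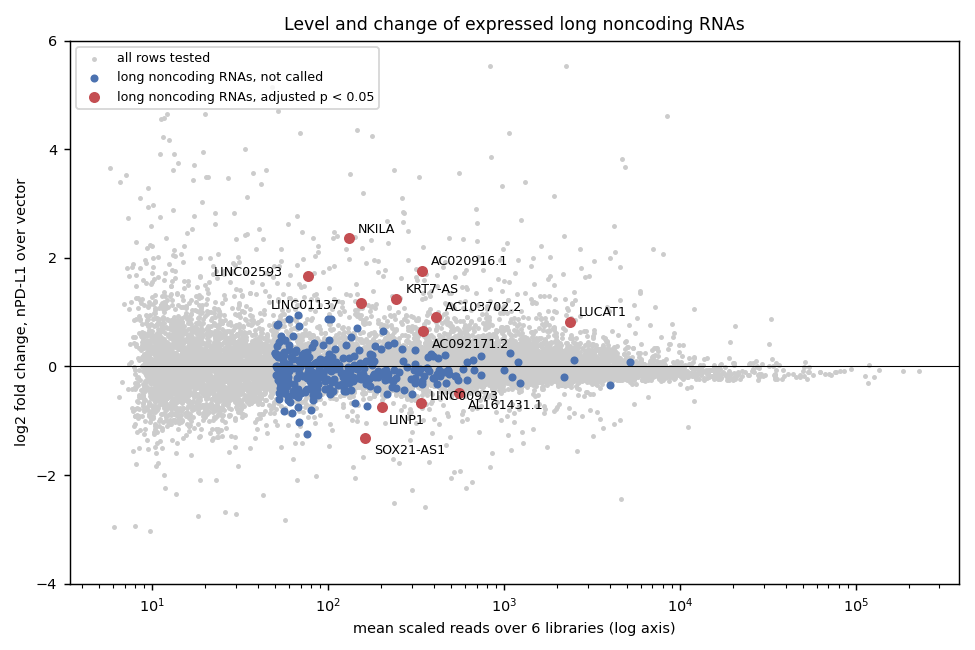
Each point is a gene, placed by its mean scaled reads over 6 libraries (log axis) and its log2 fold change of the libraries labelled nPD-L1 over vector. Grey points are all 15076 genes tested, blue points the 309 long noncoding RNAs that were not called and red points the 12 that were, which run from −1.32 (SOX21-AS1) to 2.36 (NKILA).

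By deposited type, 5 of the 144 antisense genes were called (3.47%), all of them higher. Of the 177 lincRNA genes 7 were called (3.95%), 3 higher and 4 lower. Of all genes tested 4.96% were called, 4.04% higher and 0.922% lower. The difference between the types was not tested. Counts depended on single libraries. Without nPD-L1 replicate 1 or 3 the number higher was 5 in each case, without vector replicate 2 it was 12, and the number lower was 2 without vector replicate 1, 7 without vector replicate 2, 2 without nPD-L1 replicate 1, and 1 without nPD-L1 replicate 2 or 3. NKILA, AC020916.1, LINC02593 and SOX21-AS1 were called in every one of the 18 alternative fits made for single genes.

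NKILA had the highest fold change of the 321. It is a long noncoding RNA known for binding the NF-κB complex and holding back its activation. Its gene is on chromosome 20 (57710183 to 57712780, GRCh38, plus strand, identifier ENSG00000278709), in 1 exon that starts inside the body of PMEPA1 on the opposite strand. In the vector libraries NKILA had 50.5, 28.2 and 50.9 scaled reads, and in those labelled nPD-L1 240, 213 and 203. The lowest library labelled nPD-L1 was far above the highest vector library. The log2 fold change on the log2(value + 1) scale was 2.36 (SE 0.24, adjusted p = 0.00020 in limma), from 43.2 ± 12.97 to 219 ± 19.4 (SD, n = 3).

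PMEPA1, which encodes a membrane protein that TGF-β induces and that restrains SMAD signalling, was raised at the same locus. It had 2170, 1449 and 2514 scaled reads under vector and 7538, 7083 and 6724 under nPD-L1, without overlap. Its log2 fold change was 1.83 (SE 0.17, adjusted p = 0.00010 in limma). The start sites of the pair lay 1353 bases apart, and 343 of the exonic bases of NKILA (13.2%) were also exonic in a protein-coding gene. The library kit does not mark strand and the strand setting of the counting is not given in the sources used here, so over shared bases reads of the 2 genes cannot be told apart. The whole stretch of NKILA between the 2 start sites lies in the body of PMEPA1. Reads of unspliced PMEPA1 RNA over it cannot be told apart from NKILA either. The promoter of NKILA (RefSeq, GRCh38.p14, chr20:57709933-57710232, plus strand, 250 bases before the start to 50 after it) is shown because it lies in the body of PMEPA1 and its transcript had the highest fold change. Capitals mark a TGACGTCA (the palindrome bound by CREB and ATF factors), at bases 80 to 87, and the GC box GGGCGG.

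NKILA promoter: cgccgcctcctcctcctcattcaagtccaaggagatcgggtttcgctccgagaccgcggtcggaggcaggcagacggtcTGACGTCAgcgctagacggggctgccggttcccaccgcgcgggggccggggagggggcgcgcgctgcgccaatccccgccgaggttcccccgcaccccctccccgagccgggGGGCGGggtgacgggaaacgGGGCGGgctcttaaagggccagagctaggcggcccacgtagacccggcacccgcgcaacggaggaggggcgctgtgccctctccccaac

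AC020916.1 was the most raised long noncoding RNA after NKILA. Its row covers chromosome 19 from 13823880 to 13842928 on the minus strand (ENSG00000267519) as 1 exon of 19049 bases, and RefSeq places the start of MIR23AHG, the host transcript of a microRNA cluster, 10 bases from its start. It had 137, 124 and 210 scaled reads under vector and 540, 423 and 622 under nPD-L1. The groups were well apart. The log2 fold change was 1.76 (SE 0.21, adjusted p = 0.00059 in limma), from 157 ± 46.2 to 528 ± 100.2 (SD, n = 3). Its gene body holds the hairpins of MIR24-2, MIR27A and MIR23A on the same strand, and it was the only called gene among the 16 long noncoding RNAs with a hairpin inside. Their main mature microRNAs follow, from RefSeq, because they are the known products of such a transcript. Mature microRNAs were not measured in these libraries. Capitals mark the seed, bases 2 to 8.

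hsa-miR-23a-3p: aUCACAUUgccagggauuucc
hsa-miR-27a-3p: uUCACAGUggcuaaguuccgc
hsa-miR-24-3p: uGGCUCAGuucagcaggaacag

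These microRNAs have 3 different seeds. In the genome the hairpins lie between 13836287 and 13836659 on chromosome 19, away from the start of the transcript. The promoter of AC020916.1 (RefSeq MIR23AHG, GRCh38.p14, chr19:13842869-13843168, minus strand) holds 4 copies of GGGCGG on either strand, in capitals below, and none of the other letters searched.

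AC020916.1 promoter: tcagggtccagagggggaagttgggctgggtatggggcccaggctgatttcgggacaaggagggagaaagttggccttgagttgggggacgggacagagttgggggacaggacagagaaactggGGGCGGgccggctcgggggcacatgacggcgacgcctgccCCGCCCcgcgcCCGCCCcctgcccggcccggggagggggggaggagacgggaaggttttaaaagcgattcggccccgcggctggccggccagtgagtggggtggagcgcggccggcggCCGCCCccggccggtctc

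The nearest protein-coding gene of AC020916.1 was ZSWIM4, which encodes a SWIM-type zinc finger protein and overlaps the far end of AC020916.1 on the opposite strand. ZSWIM4 had 82.8, 87.0 and 85.2 scaled reads under vector and 188, 211 and 195 under nPD-L1. It too rose without overlap, with a log2 fold change of 1.21 (SE 0.16, adjusted p = 0.00099 in limma). Of the exonic bases of AC020916.1, 2286 were also exonic in a protein-coding gene, over which reads cannot be told apart without strand.

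LINC01137 and ZC3H12A, whose starts face away from a common stretch of bases, both rose. ZC3H12A encodes an RNase, Regnase-1, that degrades messenger RNAs of inflammatory cytokines. LINC01137 (chromosome 1, 37454879 to 37474411, minus strand, ENSG00000233621) begins 141 bases from the start of ZC3H12A and runs the other way. RefSeq names a transcript that begins 32 bases from its start LITATS1, short for a long noncoding RNA induced by TGF-β that antagonizes TGF-β signalling. LINC01137 had 83.8, 128 and 77.9 scaled reads under vector and 205, 222 and 208 under nPD-L1. All libraries labelled nPD-L1 were close together and above the vector libraries (log2 fold change 1.16, SE 0.20, adjusted p = 0.0063 in limma). On the recovered reads of 4 libraries it was not called by edgeR, DESeq2 or limma (adjusted p = 0.128, 0.101 and 0.125), and the lowest over its alternatives was 5.0e-05. ZC3H12A had 457, 454 and 424 scaled reads under vector and 936, 1055 and 950 under nPD-L1, a log2 fold change of 1.14 (SE 0.11, adjusted p = 9.6e-05 in limma). The 140 bases between the starts (GRCh38.p14, chr1:37474412-37474551) are shown on the strand of LINC01137 because both genes are read outward from them. Of these bases 82.9% are G or C, and capitals mark 5 copies of GGGCGG on either strand.

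LINC01137 to ZC3H12A: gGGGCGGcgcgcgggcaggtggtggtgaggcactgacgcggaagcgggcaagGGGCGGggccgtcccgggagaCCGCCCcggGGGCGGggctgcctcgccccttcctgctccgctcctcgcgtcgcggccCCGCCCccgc

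SOX21-AS1 and SOX21 formed the other head-to-head pair in which both genes changed, in the opposite direction. SOX21 is an HMG-box transcription factor known from neural progenitors and epithelia. SOX21-AS1 (chromosome 13, 94712716 to 94716246, plus strand, ENSG00000227640, typed lincRNA) begins 317 bases from the start of SOX21. It had 256, 210 and 229 scaled reads under vector and 73.1, 107 and 99.4 under nPD-L1. Every library labelled nPD-L1 was below every vector library, and the mean fell from 232 ± 23.3 to 93.2 ± 17.9 (SD, n = 3; log2 fold change −1.32, SE 0.19, adjusted p = 0.0018 in limma). SOX21 had 371, 396 and 451 scaled reads under vector and 61.4, 84.0 and 66.6 under nPD-L1. Its fall was steeper in size, −2.52 on the log2 scale (SE 0.17, adjusted p = 8.5e-06 in limma), although the difference between the 2 genes was not tested. The promoter of SOX21-AS1 (RefSeq, GRCh38.p14, chr13:94712466-94712765, plus strand) reaches back towards SOX21 and holds none of the 4 motifs searched, so nothing in it is in capitals.

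SOX21-AS1 promoter: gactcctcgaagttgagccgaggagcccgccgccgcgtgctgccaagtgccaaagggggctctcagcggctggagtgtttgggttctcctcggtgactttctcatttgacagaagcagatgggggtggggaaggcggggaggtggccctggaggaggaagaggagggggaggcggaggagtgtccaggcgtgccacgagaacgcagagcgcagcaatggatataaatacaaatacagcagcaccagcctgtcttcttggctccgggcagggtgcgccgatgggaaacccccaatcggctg

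LINC02593 (chromosome 1, 916865 to 921016, minus strand, ENSG00000223764) lies 2912 bases from SAMD11, which encodes a sterile alpha motif protein, and is read away from it. LINC02593 had 41.4, 30.5 and 35.3 scaled reads under vector and 84.0, 125 and 146 under nPD-L1, clear of overlap although the latter were spread (log2 fold change 1.67, SE 0.26, adjusted p = 0.0028 in limma). SAMD11 had 555, 594 and 268 under vector and 1252, 1237 and 1130 under nPD-L1, a log2 fold change of 1.43 (SE 0.25, adjusted p = 0.0064 in limma). Its low value in vector replicate 3 widened the spread. The call of SAMD11 was lost without vector replicate 2 or nPD-L1 replicate 1 (adjusted p = 0.0737 and 0.0572 in limma) and when low genes were not filtered out (0.110), and over all its alternatives ran from 0.00012 to 0.110.

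AC092171.2 (chromosome 7, 5475804 to 5479811, plus strand, ENSG00000230733) lies inside FBXL18, an F-box gene on the opposite strand, and shares no exonic base with it. Reads of unspliced FBXL18 RNA over this stretch cannot be told apart without strand. AC092171.2 had 243, 276 and 294 scaled reads under vector and 431, 441 and 400.3 under nPD-L1 (log2 fold change 0.65, SE 0.13, adjusted p = 0.013 in limma). FBXL18 had 262, 233 and 339 under vector and 487, 428 and 384 under nPD-L1, also 0.65 on the log2 scale (SE 0.16, adjusted p = 0.0488 in limma). Both pairs of groups were apart, but the calls were weak. That of AC092171.2 was lost without vector replicate 1 or any of the 3 nPD-L1 libraries (adjusted p up to 0.0837 in limma) and on 4 libraries, and ran from 0.0044 to 0.550 over all alternatives. That of FBXL18 was lost in 11 of its 18 alternatives, among them upper-quartile factors (0.0592) and the fits without vector replicate 1 or any nPD-L1 library (up to 0.217), and ran from 0.0083 to 0.566 over all of them.

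The 6 remaining called genes had a nearest protein-coding gene that was not called. LUCAT1, a transcript first described in airway cells and induced by oxidative stress, was the fourth most abundant of the 321 by mean scaled reads. Its row (chromosome 5, 91054834 to 91314547, minus strand, ENSG00000248323) had 1768, 1339 and 2040 scaled reads under vector and 2760, 2806 and 3474 under nPD-L1. All libraries labelled nPD-L1 were above the vector libraries (log2 fold change 0.83, SE 0.16, adjusted p = 0.0099 in limma). Without nPD-L1 replicate 3 its adjusted p was 0.0753, the highest over its alternatives (lowest 4.8e-05), and on 4 libraries it was not called by edgeR (0.0731) or limma (0.0683). ADGRV1, a large adhesion receptor gene that it overlaps on the opposite strand, was low, at 20.6 ± 4.94 and 27.0 ± 8.26 (SD, n = 3), and the groups overlapped.

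KRT7-AS (chromosome 12, 52245048 to 52247448, minus strand, ENSG00000257671) lies within KRT7, the gene of keratin 7, on the opposite strand. KRT7-AS had 169, 97.1 and 176 scaled reads under vector and 342, 278 and 407 under nPD-L1 (log2 fold change 1.24, SE 0.23, adjusted p = 0.010 in limma). Without nPD-L1 replicate 1 or 3 it was not called (adjusted p = 0.0730 and 0.0805 in limma, the latter the highest over its alternatives and 4.3e-05 the lowest). KRT7 was abundant and was not called, at 31959.6 ± 6062 and 28985 ± 7224 (SD, n = 3; log2 fold change −0.15, SE 0.19, adjusted p = 0.770 in limma). Of the exonic bases of KRT7-AS 16.7% were also exonic in a protein-coding gene, over which reads cannot be told apart without strand. Over its other bases, reads of unspliced KRT7 RNA cannot be told apart from KRT7-AS either.

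AC103702.2 (chromosome 17, 48635923 to 48647023, minus strand, ENSG00000272763) lies 2351 bases from HOXB7, a homeobox gene of the HOXB cluster. AC103702.2 had 254, 344 and 254 scaled reads under vector and 639, 493 and 477 under nPD-L1, with no overlap (log2 fold change 0.92, SE 0.17, adjusted p = 0.0078 in limma). Its call was lost without vector replicate 1 or nPD-L1 replicate 1 (adjusted p = 0.0525 and 0.0585 in limma) and on 4 libraries by edgeR (0.0770) and limma (0.0905), with 0.00010 as the lowest over its alternatives. HOXB7 had 519 ± 42.7 scaled reads under vector and 428 ± 64.0 under nPD-L1 (SD, n = 3), a log2 fold change of −0.28 that did not pass (SE 0.14, adjusted p = 0.391 in limma).

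The other 3 lower genes lay far from any protein-coding gene. LINP1 is known as a scaffold for Ku and DNA-PKcs in the joining of broken DNA ends. It (chromosome 10, 6709530 to 6740532, plus strand, ENSG00000223784) had 226, 300.4 and 238 scaled reads under vector and 132, 156 and 162 under nPD-L1 (log2 fold change −0.76, SE 0.17, adjusted p = 0.024 in limma). Its nearest protein-coding gene, PRKCQ, a protein kinase C gene 129229 bases away, differed by −0.03 (SE 0.14). LINC00973 (chromosome 3, 98981058 to 98983096, plus strand, ENSG00000240476) had 359, 440.5 and 450.0 scaled reads under vector and 273, 241 and 264 under nPD-L1 (log2 fold change −0.68, SE 0.14, adjusted p = 0.015 in limma). DCBLD2, 79369 bases away, differed by −0.19 (SE 0.16).

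AL161431.1 (chromosome 13, 109269634 to 109278512, plus strand, ENSG00000275216) had 584, 632 and 741 scaled reads under vector and 460.5, 459 and 464 under nPD-L1. The fall was the smallest among the 12 and the libraries labelled nPD-L1 were nearly equal (log2 fold change −0.49, SE 0.12, adjusted p = 0.042 in limma). MYO16, the nearest protein-coding gene by distance between gene bodies, had 9.78 ± 2.86 and 12.998 ± 2.69 scaled reads (SD, n = 3). By distance between start sites the nearest was IRS2, an adaptor of the insulin receptor, which was lower as well (log2 fold change −0.80, SE 0.12, adjusted p = 0.0028 in limma). Without nPD-L1 replicate 1, 2 or 3, none of LINP1, LINC00973 and AL161431.1 was called (adjusted p from 0.0573 to 0.163 in limma). LINP1 and AL161431.1 were not called without vector replicate 1 either, nor AL161431.1 without vector replicate 3. On 4 libraries edgeR, DESeq2 and limma called none of the 3, and over all alternatives the adjusted p ran from 0.0047 to 0.142 for LINP1, from 0.0043 to 0.129 for LINC00973 and from 0.013 to 0.313 for AL161431.1.

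**Figure D2:**
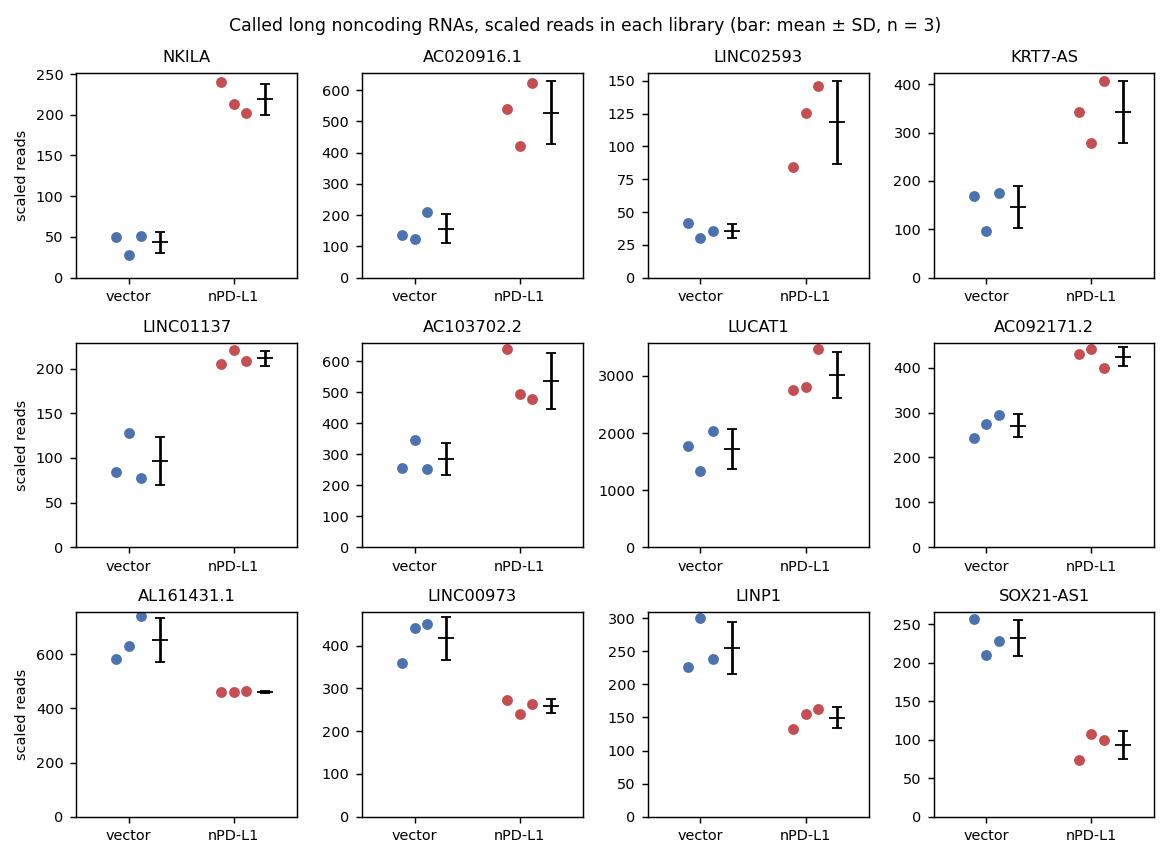
Scaled reads of each of the 12 called long noncoding RNAs (vertical axes from 0) in the 3 vector libraries (blue) and the 3 libraries labelled nPD-L1 (red), with the mean ± SD of each group as a black bar. The upper 2 rows hold the 8 genes that were higher, the lowest row the 4 that were lower, and in no panel do the groups overlap.

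Neighbours were then compared across all long noncoding RNAs. The nearest protein-coding gene was tested for 288 of the 321, including all 12 called ones. In 6 of these 12 it was called in the same direction (PMEPA1, ZSWIM4, SAMD11, ZC3H12A and FBXL18 higher, SOX21 lower), and in none in the opposite one. With the nearest gene taken by start sites the number was also 6. AL161431.1 with IRS2 was then among them, so these were not the same 6 pairs. Of all protein-coding genes tested, 5.56% were called, 4.56% higher and 0.995% lower. Among the 276 uncalled long noncoding RNAs with a tested neighbour, 21 (7.61%) had a called one, and in 10 of these 21 the long noncoding RNA had the sign of its neighbour. FOXN3-AS1 differed by −0.02 while FOXN3, the forkhead gene around it, was higher by 1.39 (SE 0.13, adjusted p = 0.00011 in limma). MIR34AHG, the host of miR-34a, differed by 0.16 while GPR157, 18841 bases away, was higher by 2.64 (SE 0.12). NEAT1 differed by −0.35 while FRMD8, 9249 bases away, was higher by 1.37 (SE 0.11). These genes were chosen after their values had been seen. Of the 27 pairs with a called neighbour, 21 had an uncalled long noncoding RNA, as did 276 of all 288 pairs tested.

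The position relative to the neighbour was described in 5 classes. The 145 that overlapped a protein-coding gene on the opposite strand held 5 of the 8 higher genes (NKILA, AC020916.1, KRT7-AS, LUCAT1 and AC092171.2) and no lower one. The 39 that began within 1000 bases of their neighbour's start and ran the other way held LINC01137 and SOX21-AS1. The 91 farther than 10000 bases from any protein-coding gene held LINC00973, LINP1 and AL161431.1, and no higher one. LINC02593 and AC103702.2 were among the 38 within 10000 bases in another position, and none of the 8 overlapping on the same strand was called. The share called was 3.45% of those overlapping on the opposite strand, 5.13% of the head-to-head ones, 5.26% of those within 10000 bases and 3.3% of the farther ones, all near the 4.96% of all genes tested. Across the 288 pairs, the log2 fold changes of a long noncoding RNA and its neighbour had a Pearson r of 0.37 and a Spearman rho of 0.17. Pearson's r was 0.69 over the 39 head-to-head pairs, 0.44 over the 128 tested pairs overlapping on opposite strands and 0.07 over the 77 tested pairs farther than 10000 bases apart. These are correlations across genes that share the same 6 libraries and, where they overlap, may share reads, and genes are not independent replicates. Over the uncalled long noncoding RNAs alone, all classes together, r was 0.17. It was not computed without the called pairs in each class, so their weight in the class values is not known.

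Reads of overlapping genes bore on part of the set. Of the 321, 126 shared exonic bases with a protein-coding gene, and 3 of the 12 called genes did (NKILA, AC020916.1 and KRT7-AS). Among the 195 that shared none, 5 were higher and 4 lower, where 4.04% and 0.922% of all genes tested were. Of these 9, 4 had a neighbour called in the same direction. This restriction kept genes that lie in an intron of another gene, such as AC092171.2.

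Outside the called genes, 5 long noncoding RNAs had an adjusted p between 0.05 and 0.1 in limma, and all 5 were lower, singled out after their values had been seen. They were MIR503HG (−1.24), MIR137HG (−1.03), AL118506.1 (−0.75), SCAMP1-AS1 (−0.68) and RNASEH1-AS1 (−0.50). MIR503HG, the host of miR-503, had 121, 62.1 and 137 scaled reads under vector and 40.3, 29.3 and 63.7 under nPD-L1. Vector replicate 2 lay below nPD-L1 replicate 3, so the groups overlapped (SE 0.35, adjusted p = 0.0844 in limma). MIR137HG, the host of miR-137, had 108, 67.8 and 99.8 under vector and 62.2, 40.5 and 32.8 under nPD-L1, without overlap (SE 0.29, adjusted p = 0.0777 in limma). MIR503HG and MIR137HG were the only uncalled genes with a 2-fold or larger difference. Without vector replicate 2 MIR503HG passed, at −1.59 (adjusted p = 0.0022 in limma, the lowest over its alternatives, the highest being 0.748), and it also passed when low genes were not filtered out (0.017). No neighbour of these 5 was called.

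Promoter letters were searched on both strands in RefSeq windows, which matched 134 of the 321 by a start within 100 bases, and 6 of the 12 called genes. The AP-1 site TGANTCA was in 2 of these 6, KRT7-AS (TGACTCA, 95 bases before the start) and LINC00973 (TGAGTCA, 49 bases before it), in 9 of the 134 (6.72%) and in 7.71% of 35116 promoters. TGACGTCA was in NKILA, in 4 of the 134 and in 1.85% of all promoters. GTCTAGAC, a palindrome read by SMAD proteins, was in none of the 134 and in 0.202% of all promoters. GGGCGG was in 3 of the 6, in 64.2% of the 134 and in 44.95% of all promoters. TGACGTCA does not contain TGANTCA, and a match is a description of the window only.

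Well-known long noncoding RNAs were read by their roles. Of the genes that build nuclear bodies, MALAT1 (nuclear speckles) and NEAT1 (paraspeckles) were among the 321, and neither was called in limma, nor had an unadjusted p under 0.05, nor was called on 4 libraries by edgeR or DESeq2. NEAT1 had 4835, 4112 and 3999 scaled reads under vector and 1875, 3630 and 5670 under nPD-L1. MALAT1 had 1178, 882 and 1226 under vector and 684, 1010 and 2211 under nPD-L1. For both, nPD-L1 replicate 1 was the lowest and replicate 3 the highest of the 6 libraries, and the groups overlapped. The log2 fold changes were −0.35 (SE 0.35) and 0.09 (SE 0.39). MEG3, an imprinted transcript, ranged from 68.9 to 259 scaled reads under vector and from 144 to 232 under nPD-L1, and was not called.

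The list of hosts of small nucleolar RNAs, whose introns carry the guides of ribosomal RNA modification, was the largest role group, with 10 genes. None was called in limma, nor on 4 libraries by edgeR or DESeq2, and all 10 had a fitted value below 0, with a median log2 fold change of −0.18 against −0.02 over all genes tested. Under upper-quartile, TMM and median-of-ratios factors all 10 were still below 0, and without vector replicate 2 the number was 8. Under an unadjusted p of 0.05 were 2 of the 10, SNHG8 and CYTOR, where 14.2% of all genes tested reached it. CYTOR was on this list although its gene body holds a microRNA hairpin, MIR4435-1. A small nucleolar RNA in it was not looked for. SNHG8 had 1341, 1479 and 1237 scaled reads under vector and 957, 1178 and 1175 under nPD-L1, without overlap (log2 fold change −0.30, SE 0.12, adjusted p = 0.269 in limma). CYTOR had 660.1, 709 and 633 under vector and 564, 574 and 554 under nPD-L1 (−0.24, SE 0.10, adjusted p = 0.324 in limma). CYTOR and MIR4435-2HG are near-identical copies on chromosome 2, and their reads may have been split between them.

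The list of microRNA hosts had 5 genes among the 321 and did not hold AC020916.1, which was higher. None of the 5 was called in limma, nor on 4 libraries by edgeR or DESeq2, while 1 of them, MIR503HG, had an unadjusted p under 0.05. MIR22HG, DLEU2 and MIR222HG had log2 fold changes of 0.23, 0.03 and 0.03, MIR4435-2HG of −0.09 and MIR503HG of −1.24. Genes tied to growth or stress numbered 7. NKILA and LUCAT1 were higher, where 4.04% of all genes tested were, and the other 5 were not called. PVT1, which neighbours MYC, had 492, 497 and 570.5 scaled reads under vector and 362, 466 and 430.2 under nPD-L1, without overlap (log2 fold change −0.31, SE 0.13, adjusted p = 0.308 in limma). PURPL had 295, 270 and 355 under vector and 162, 224 and 313 under nPD-L1 (−0.44, SE 0.22). CRNDE and NORAD differed by −0.14 and 0.09. No gene of the liver list reached the mean of 50 with a lincRNA or antisense type, and LINC01018 and LINC00261 were at or under 2.08 scaled reads in every library.

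**Figure D3:**
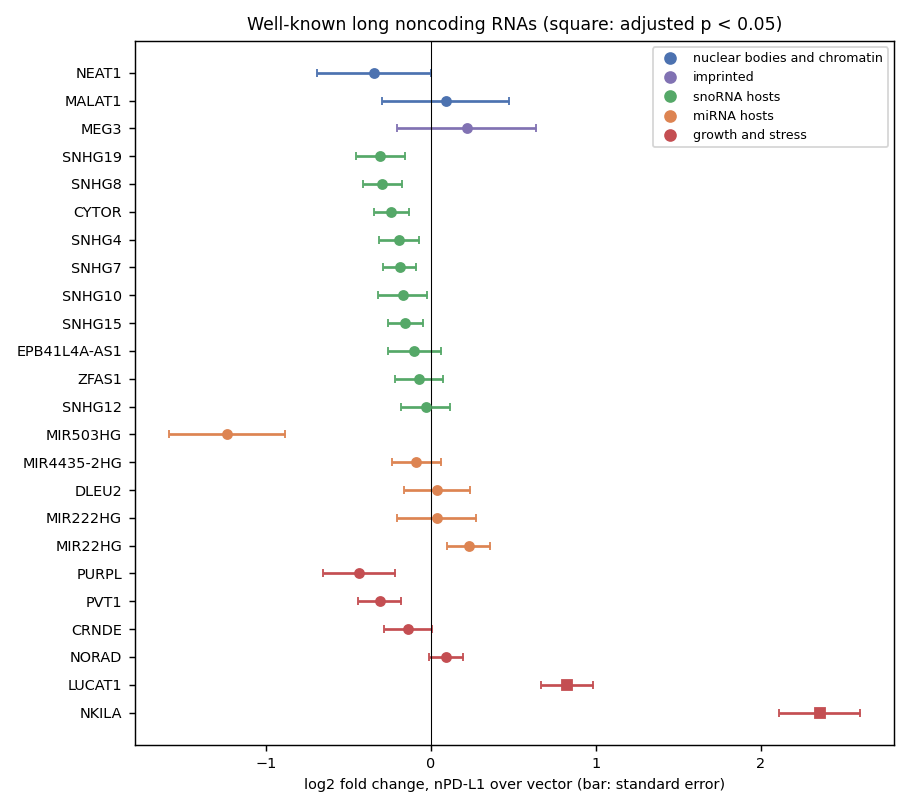
Log2 fold change, nPD-L1 over vector (horizontal axis, bars are the standard error), of 24 of the 25 well-known long noncoding RNAs among the 321, coloured by role (1 gene tied to growth or stress is not drawn). Squares mark the called genes, NKILA at 2.36 and LUCAT1 at 0.83, and circles the others. All 10 genes among the 321 that were listed as hosts of small nucleolar RNAs (green, CYTOR among them) lie left of 0.

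By level per kilobase of exon, SNHG8 was first, with 1330 scaled reads per kilobase over the 6 libraries. AC099850.3, NORAD and SNHG19 followed at 1097, 983 and 917 scaled reads per kilobase. NORAD is known for binding Pumilio proteins and guarding chromosome number. The order of these 4 was not firm, since AC099850.3 had 265 to 452 scaled reads under vector and 253 to 407 under nPD-L1. SNHG7, FGD5-AS1 and AC005288.1 had 506, 487 and 430.2 scaled reads per kilobase, and ITGB1-DT, LINC00973 and AL513165.1 had 361, 351 and 326. Over the 321 genes the median was 48.3 scaled reads per kilobase, against 119 over the genes tested with a mean of at least 50. Of the 10 highest, LINC00973 alone was called, falling from 433 to 270 scaled reads per kilobase. By plain scaled reads NORAD (5249), NEAT1 (4020), FGD5-AS1 (2501) and LUCAT1 (2365) were the most abundant.

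**Figure D4:**
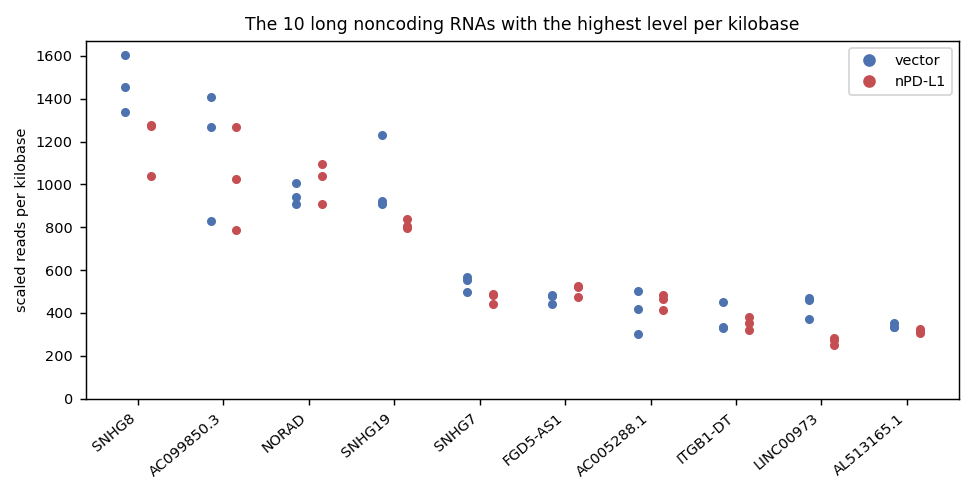
Scaled reads per kilobase of exon (vertical axis, from 0) in each vector library (blue) and each library labelled nPD-L1 (red) for the 10 long noncoding RNAs with the highest mean on that scale. The groups overlap in 5 of the 10 (over all genes tested they did not overlap in 20.6%). The red points of LINC00973, the only gene called among the 10, lie below its blue points.

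At the other end of the range the minimum mean cut through a dense part of the distribution. ZNF529-AS1 (50.01), LINC01194 (50.2), MANCR (50.6), LINC01312 (50.6) and AC118754.2 (50.8) lay just inside it, and AC019205.1 (49.98), AL391244.3 (49.7), AL050341.2 (49.6), AC010642.2 (49.4) and AC012073.1 (49.4) just outside. With a minimum of 20, 690 genes were kept, 15 of them higher and 6 lower, where 4.04% and 0.922% of all genes tested were.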

How the data were processed

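Total RNA of PD-L1-knockout Hep3B cells carrying the vector or nPD-L1 was made into NEBNext Ultra RNA libraries, 3 per group, and sequenced and analyzed by Novogene. The submitters' processing notes name CASAVA, HISAT2 (version 2.0.5) and hg38. The counter, its strand setting and the RNA selection are not given in the sources used here. The authors deposited a signal for each gene and library, reads per gene over 1 size factor per library, in a table that calls them raw. The table also holds the authors' group means, fold changes and p values, which were not used. Of the values checked, 100% came out as whole reads (within 0.02 of a read) in each of the 6 libraries. Recovered reads were accepted for 4 libraries only (vector 2 and 3, nPD-L1 1 and 3). In the other 2 libraries the scaled value of 1 read (1.009 in vector 1, 1.011 in nPD-L1 2) was judged too close to 1 to accept. Fits on 4 libraries thus compare 2 with 2, a limit set by this choice. The recovered libraries held 17427519 to 22253295 reads, and scaled totals ran from 18082164 to 19682128. 27004 of the 27009 genes had the coordinates of GENCODE v29.

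Genes reaching 10 scaled reads in 3 or more libraries (15076) were tested on log2(value + 1) with limma 3.58.1 in R 4.3.3, moderated by eBayes (trend and robust options) and Benjamini-Hochberg adjusted over all of them, and called at an adjusted p under 0.05. Fold changes on this scale understate those of low genes. The scripts were tested on simulated data. Nothing in the labels says that the libraries came from separate cultures, so p values measure the spread between these libraries, which may be technical, and counting intervals were not computed. edgeR 4.0.16 and DESeq2 1.42.0 were applied to the recovered reads of 4 libraries only, where edgeR called 4 higher and 1 lower of the 321 and DESeq2 6 and 1.

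The members, gene lists and motifs were chosen with earlier results of these data known. Genes were named by rule: called long noncoding RNAs without overlap between groups (the 12 highest and 12 lowest fold changes), their nearest protein-coding genes, the 10 highest per kilobase, those on a list of well-known long noncoding RNAs, and CD274. Some genes on the lists are not reported here. Promoters were printed where the neighbour was called too and RefSeq gave a window free of UTR. The nearest protein-coding gene was taken by distance between gene bodies in the deposited coordinates, with 0 where they overlap. It was also the nearest in GENCODE v29 for 294 of the 321. Other scalings, pseudocounts, filters, minimum means and thresholds, the replicate number as a block and each library left out were tried, and the restriction to genes sharing no exonic base was added after seeing the data.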

Additional observations from a re-analysis of the deposited data

How the results depend on the processing

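The main counts among the 321 were 8 higher, 4 lower and 6 with a neighbour called in the same direction. Each library left out in turn gave 5 to 12 higher and 1 to 7 lower. On the recovered reads of 4 libraries edgeR gave 4 and 1, DESeq2 6 and 1, and limma 4 and 1. These fits have fewer libraries. With a 2-fold minimum the counts were 5 and 1, and at an unadjusted p under 0.05 they were 22 and 33 (6.85% and 10.3%, against 9.53% and 4.71% of all genes tested), with 13 neighbours. A minimum mean of 20 gave 15 higher. lincRNA genes alone gave 3 higher and 3 neighbours, as did genes overlapping no protein-coding gene, and those sharing no exonic base with one gave 5 higher. These smaller counts come from smaller sets. The replicate number as a block gave 13 higher and 10 lower, MIR503HG among the latter (adjusted p = 0.0024 in limma). Nothing in the labels pairs the libraries by number, and their deviations do not settle it. Deviations of same-numbered libraries correlated at −0.01, 0.23 and 0.13, which was the best match for vector replicates 2 and 3. Vector replicate 1 correlated best with nPD-L1 replicate 3 (0.07). The other scalings, pseudocounts and filters left the 2 counts within 1.5 times (8 to 9 and 4 to 6). The median log2 fold change stayed below 0 in all alternatives, from −0.13 to −0.04, and none of the 12 called genes changed sign. Of the 12 called genes, 4 were called in all 18 alternatives for single genes. Counting error is largest for the lowest genes.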

Other observations

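Noncoding genes of other deposited types lay outside the 321 and were read as values. Of the 113 genes of 6 such types with a mean of at least 50, 6 were called in limma (5.31%, against 5.54% of all genes tested with such a mean), and edgeR and DESeq2 each called 2 on 4 libraries. They were 2 of 56 typed processed_transcript, 3 of 22 typed TEC and 1 of 11 typed sense_overlapping. Of the other 24, typed sense_intronic, bidirectional_promoter_lncRNA or macro_lncRNA, limma, edgeR and DESeq2 called 0, and 2 had an unadjusted p under 0.05. Several well-known transcripts have types outside those taken. GAS5, a host of small nucleolar RNAs that accumulates in arrested cells, had 2871 ± 235 scaled reads under vector and 2688 ± 159.9 under nPD-L1 (SD, n = 3), and SNHG1 had 3006 ± 464 and 2781 ± 351. SNHG14, another listed host, had 1493 ± 322 and 1745 ± 97.0. TUG1 had 1347 ± 317 and 1697 ± 294, a log2 fold change of 0.35 (SE 0.18, adjusted p = 0.438 in limma).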
